A study of Mus musculus with 12 samples.

Results

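The 10 genes described here are the TGF-beta ligands Tgfb1, Tgfb2 and Tgfb3, the receptors Tgfbr1, Tgfbr2 and Tgfbr3, and the signal transducers Smad2, Smad3, Smad4 and Smad7, read in the cerebral cortex of mice that carry a missense allele of Tbl1xr1. They are 10 of the 54232 genes in the count table, found by matching Ensembl identifiers to symbols in GENCODE mouse M21, and all 10 were among the 18016 genes tested. The family was selected on an earlier reading of these data, in which Tgfb2 stood near the top of the genes ranked by p in females. The genotype difference of Tgfb2 over both sexes, in females and between the sexes is therefore given as a description and supports nothing. Female mutant mice, homozygous for the Y446C allele of Tbl1xr1, and male mutant mice of the same genotype were set against female and male wild-type mice, with 3 mice in each of the 4 groups. All 12 mice were C57BL/6J and 12 weeks old, and each gave 1 library of cortex mRNA. Per the labels the libraries come from separate mice, and the labels name no line, founder or litter. The mouse is a model of Pierpont syndrome, a human developmental disorder, and every cell of a mutant carries the allele.

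TGF-beta ligands are secreted in a latent form, bound to their own propeptide, and have to be released before they signal. A released ligand binds the type II receptor Tgfbr2, which phosphorylates the type I receptor Tgfbr1; Tgfbr1 then phosphorylates Smad2 and Smad3, which enter the nucleus with Smad4 and act on target genes. Smad7, itself a target gene, blocks Tgfbr1 and closes a feedback loop. In the brain TGF-beta is known for keeping microglia in their resting state, and neurons and astrocytes make and respond to it. The protein made from Tbl1xr1 belongs to the NCoR corepressor, and Ski and Skil, which hold Smad targets silent, recruit that corepressor.

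Depth was alike in 11 libraries, at 21238427 to 32669138 counts (median 24712815) with 5.23% to 10.4% of them mitochondrial, and the members had 86 to 2729 counts there. Female mutant 3 was far shallower, at 3748515 counts of which 31.6% were mitochondrial, and the members had 12 to 156 counts in it. No member was at 0 in any library. The floor of 3 counts that a 0 would allow stood at 1.16 counts per 1000000 (CPM, on totals scaled by TMM) in female mutant 3 and at 0.0860 to 0.136 CPM in the rest, for counting error only. Tbl1xr1 itself had a log2 fold change, mutant over wild type, of -0.17 (SE 0.07; edgeR adjusted p = 0.950), and gene counts do not show the missense allele, so they check no label. All 6 markers of cortical excitatory neurons were present in every library, and their summed level ran from 932 to 1256 CPM in mutants, against 988 to 1255 CPM in wild-type mice. Markers of striatal neurons, a neighbouring tissue, were also present, with summed levels of 195 to 1047 CPM (median 487) in mutants, against 397 to 1529 CPM (median 822) in wild-type mice, and 8 of 8 were lower in mutants.

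Levels per length of exon set the members in order. In wild-type cortex Smad4 and Smad3 were the most abundant, at 13.8 ± 1.09 and 12.8 ± 1.74 CPM per kb (SD, n = 6 here and for the other members), and their ranges overlapped. Tgfbr1 followed at 5.73 ± 0.458 CPM per kb, below every library of Smad3 and above every library of Smad7. Smad7 at 4.45 ± 0.315, Tgfb3 at 4.31 ± 0.180 and Tgfb2 at 3.77 ± 0.479 CPM per kb each overlapped the next in the order, and Smad2, which came next at 3.38 ± 0.115 CPM per kb, lay above every library of Tgfbr2. Tgfbr2 (2.61 ± 0.0808 CPM per kb), Tgfbr3 (2.17 ± 0.233) and Tgfb1 (0.931 ± 0.167) came last, with ranges that did not overlap. In mutants the order was the same but for Tgfb2 and Smad7, which changed places around Tgfb3. Tgfb2 stood 4th at 5.15 ± 0.805 CPM per kb, ahead of Tgfb3 at 4.28 ± 0.443 and Smad7 at 3.87 ± 0.790 (n = 6). Without female mutant 3, Smad3 at 13.8 ± 2.21 CPM per kb also stood ahead of Smad4 at 12.8 ± 0.709 in mutants (n = 5). Lengths are of all annotated exons merged, so a gene whose cortex transcripts are short reads too low on this scale.

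**Figure D1:**
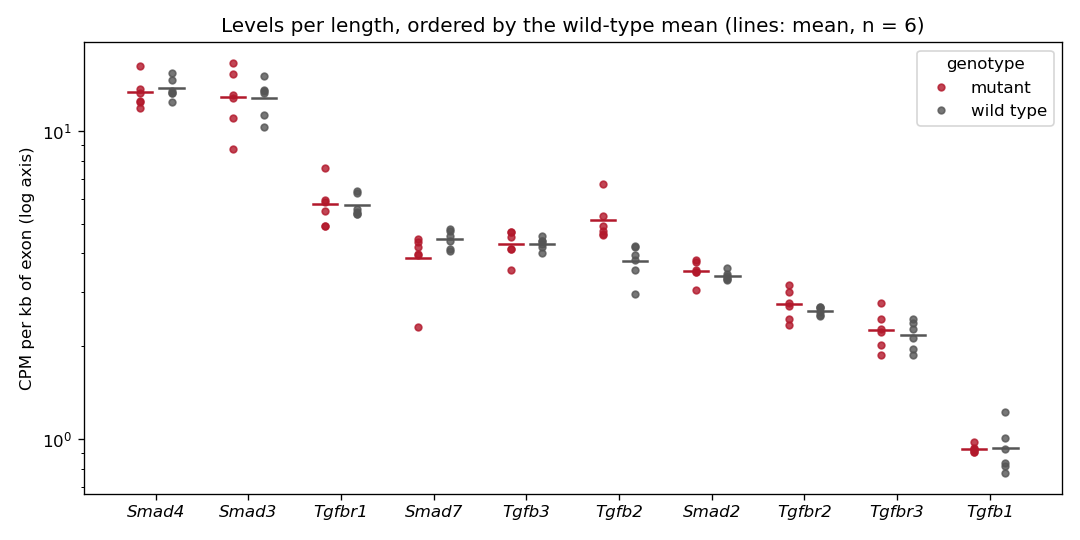
Level of each member per kb of merged exon (log axis) in the 6 mutant libraries, left of each pair, and the 6 wild-type libraries, right, ordered by the wild-type mean; points are libraries and lines are means. Smad4 and Smad3 sit near 13 CPM per kb and Tgfb1 near 0.93, and Tgfb2 is the member whose points do not overlap between genotypes.

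Tgfb2 encodes a ligand that is needed for heart, skeletal and craniofacial development in mice and that depends on the co-receptor Tgfbr3 to reach Tgfbr2. The gene lies on the minus strand of chromosome 1, from 186622792 to 186705989 (GRCm38), and the antisense gene Gm29491, which shares exon bases with it on the other strand, had 0 to 7 counts against 79 to 1253 for Tgfb2. RefSeq promoter windows were at hand for 5 of the 10 members. The upstream 250 bases of the ligand that differed most and of the scarcest ligand are shown, because the genes are close relatives with unlike promoters. Capitals mark 4 motifs, named here after the sequences were seen and searched on both strands. A Smad element, spelled CAGACA, an E-box, whose letters are CACGTG, and a TATA box, which reads as TATAAA, are marked in Tgfb2. The GC box, with the letters GGGCGG on either strand, is marked in Tgfb1, and no marked matches overlap.
Tgfb2, chr1:186705990-186706239, minus strand: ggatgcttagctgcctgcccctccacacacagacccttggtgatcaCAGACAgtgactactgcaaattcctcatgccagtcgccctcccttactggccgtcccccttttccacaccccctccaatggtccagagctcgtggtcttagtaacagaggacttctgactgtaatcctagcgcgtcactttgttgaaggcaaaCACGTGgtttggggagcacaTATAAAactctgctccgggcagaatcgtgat
Tgfb1, chr7:25686752-25687001, plus strand: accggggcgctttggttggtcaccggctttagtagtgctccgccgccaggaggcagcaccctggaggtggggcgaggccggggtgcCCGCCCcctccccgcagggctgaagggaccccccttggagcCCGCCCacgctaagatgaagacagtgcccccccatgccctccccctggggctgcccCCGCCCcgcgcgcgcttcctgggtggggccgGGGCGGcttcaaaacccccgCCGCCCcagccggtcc
Both are RefSeq sequence of GRCm38.p6, 5′ to 3′, and end at the base before the annotated start. The Tgfb2 window was 53.6% G and C and held the TATA box at -31, the E-box at -51 and the Smad element at -204, counted from the start, with no GC box. The Tgfb1 window was 75.2% G and C and held 5 GC boxes, at -16, -36, -67, -123 and -164, and none of the other motifs. Of 32851 upstream windows of the same length, 12.4% held the TATA box, 6.02% the E-box, 17.1% the Smad element and 32.7% the GC box. These are matches of letters only.

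Tgfb2 was at 28.5, 30.6 and 38.8 CPM in female mutants 1, 3 and 6, against 22.9, 20.4 and 17.1 CPM in female wild-type mice 2, 4 and 5. Male mutants 7, 10 and 27 had 26.5, 26.9 and 27.5 CPM, against 21.98, 24.3 and 24.4 CPM in male wild-type mice 8, 12 and 13. Values of a group are given by animal number throughout. Every mutant library lay above every wild-type library, within each sex and over both, and female mutant 6 was the highest of all. Groups that did not overlap were seen for 22.5% of all tested genes in females, 13.5% in males and 0.438% over both sexes. Female mutants averaged 32.6 ± 5.47 CPM and female wild-type mice 20.1 ± 2.90 CPM (SD, n = 3 each), a fitted log2 fold change of 0.71 (SE 0.14), or 1.63-fold. It ranked 5th of 18016 genes by p, which is the value on which the family was selected. Leaving out female mutant 3 gave 0.74 (SE 0.14). In males the means were 26.97 ± 0.495 CPM in mutants, against 23.6 ± 1.38 CPM in wild-type mice (SD, n = 3 each). The male log2 fold change was 0.19 (SE 0.14; edgeR adjusted p = 0.9999), so the male difference did not pass the test. Over both sexes it was 0.45 (SE 0.12), and 0.44 (SE 0.12) without female mutant 3. The female effect minus the male effect was 0.51 on the log2 scale (SE 0.20); it was not called, so a difference between the sexes was not shown.

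Levels of other cells' markers moved between the same libraries. Female wild type 5, with the least Tgfb2 (17.1 CPM), had the highest summed striatal level (1529 CPM), and female mutant 3, with 30.6 CPM of Tgfb2, had the next highest (1047 CPM). Male mutant 10 had the lowest striatal level (195 CPM) with 26.9 CPM of Tgfb2. The 7 astrocyte markers summed to 5220 to 6763 CPM in mutants, against 5471 to 5866 CPM in wild-type mice, and 4 of 7 were higher in mutants. The highest sum was that of female mutant 3, the shallow library. Without it mutants ran from 5220 to 5611 CPM, with a mean of 5376 CPM against 5634 CPM in wild-type mice. Meningeal fibroblast markers summed to 33.7 to 70.7 CPM in mutants, against 28.7 to 59.7 CPM in wild-type mice (4 of 6 higher). Choroid plexus markers summed to 392 to 546 CPM in mutants, against 433 to 540 CPM in wild-type mice (5 of 5 lower). The part of these differences in the Tgfb2 result was not tested. In bulk tissue, fewer cells of a type and less RNA per cell cannot be told apart.

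Tgfb3, a ligand needed for fusion of the palate in mice, had a log2 fold change of 0.01 (SE 0.08) over both sexes. Its levels were 15.9, 12.0 and 15.8 CPM in female mutants 1, 3 and 6, against 14.5, 14.8 and 14.9 CPM in female wild-type mice. Male mutants had 15.3, 14.0 and 13.9 CPM, against 13.6, 14.2 and 15.4 CPM in male wild-type mice. The groups overlapped in both sexes, and the low value was that of the shallow library. Without it the 2 female mutants left lay above the female wild-type mice, with a log2 fold change of 0.11 (SE 0.09) in place of 0.03 (SE 0.12). With that library left out, 30.1% of all tested genes had female groups that did not overlap. The gene lies on chromosome 12 from 86056745 to 86079041, minus strand, and the 2 genes that share exon bases with it had at most 3 counts in any library.

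Tgfb1, the ligand on which microglia depend in mice, was the scarcest member; it lies on chromosome 7 from 25687002 to 25705077, plus strand. It was at 4.71, 4.64 and 4.68 CPM in female mutants, against 5.08, 4.67 and 6.19 CPM in female wild-type mice. In males it was at 4.91, 4.59 and 4.57 CPM in mutants, against 3.91, 4.11 and 4.21 CPM in wild-type mice. The male groups did not overlap and the mutants were higher, whereas the female groups overlapped and the mutants were lower on average. Log2 fold changes were -0.18 (SE 0.16) in females and 0.20 (SE 0.15) in males, and their difference, -0.38 (SE 0.22), had an edgeR adjusted p of 0.555. Without female wild type 5, the library with the most Tgfb1, the female value was -0.049. Summed microglial markers were 111 to 184 CPM in mutants, against 179 to 203 CPM in wild-type mice, and the lowest sum was that of female mutant 3. Without it mutants ran from 168 to 184 CPM. With that library kept, 8 of 8 were lower in mutants over both sexes. In females 7 of 8 were lower, at a median log2 fold change of -0.30, and in males 5 of 8, at -0.009. The share of all tested genes that was lower was 52.4% over both sexes, 53.5% in females and 49.0% in males. The 3 blood cell markers summed to 17.02 to 29.3 CPM in female mutants, against 31.6 to 40.6 CPM in female wild-type mice, with 3 of 3 lower. They summed to 36.8 to 46.8 CPM in male mutants, against 18.03 to 24.7 CPM in male wild-type mice, with 3 of 3 higher. In each sex the summed blood markers had groups that did not overlap, lower in female mutants and higher in male mutants. Of all tested genes, 22.5% had such groups in females and 13.5% in males. The part of either list in the Tgfb1 values was not tested.

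Within a library the ligands can be set against each other without any scaling between libraries. Tgfb2 made up 46.6%, 54.2% and 54.5% of the summed ligand level per kb in female mutants 1, 3 and 6, against 42.7%, 39.9% and 34.4% in female wild-type mice. In males its share was 45.5%, 47.9% and 48.6% in mutants, against 44.1%, 45.6% and 43.9% in wild-type mice, where male mutant 7 lay just under male wild type 12. Tgfb3 held 36.4% to 44.9% in mutants, against 45.6% to 51.3% in wild-type mice, which did not overlap. The ratio of Tgfb2 to Tgfb3 per kb was above 1 in all 6 mutants, at 1.01 to 1.49, and below 1 in all 6 wild-type mice, at 0.671 to 0.999. Tgfb1 held 7.54% to 9.67% in mutants, against 8.70% to 14.3% in wild-type mice. These ratios contain the Tgfb2 value that put the family forward, so they are a description too.

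**Figure D2:**
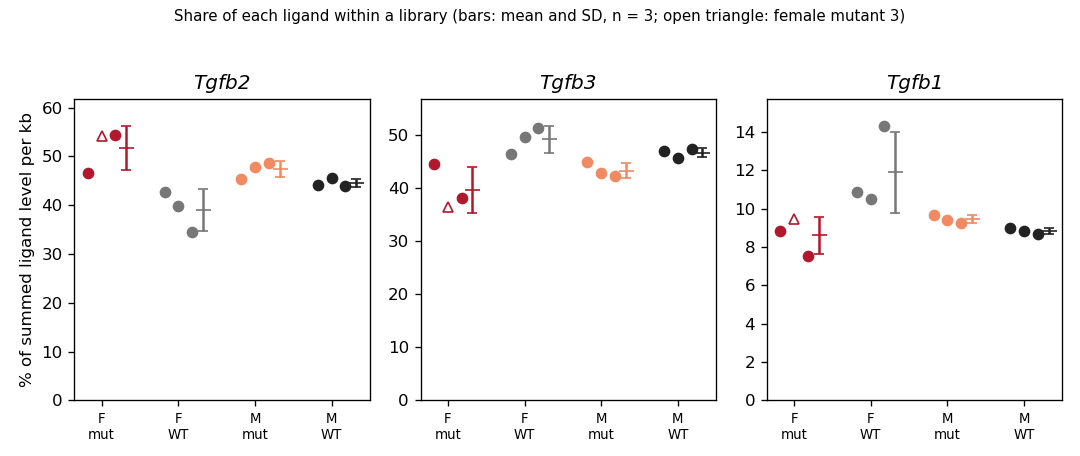
Share of each ligand (%) in the summed level per kb of the 3 ligands, by library, in female mutants, female wild-type mice, male mutants and male wild-type mice; points are libraries, the open triangle is female mutant 3, and bars are the mean and SD of 3 libraries. The Tgfb2 share in female mutants, 46.6% to 54.5%, lies above that in female wild-type mice, 34.4% to 42.7%, while the male groups touch.

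The receptors had groups that overlapped in both sexes. Tgfbr1, the type I kinase, on chromosome 4 from 47353222 to 47414931, plus strand, was at 38.9, 49.5 and 38.5 CPM in female mutants 1, 3 and 6, against 36.5, 35.2 and 41.6 CPM in female wild-type mice. Male mutants had 35.9, 32.05 and 32.1 CPM, against 40.9, 35.6 and 35.0 CPM in male wild-type mice. The groups overlapped in both sexes, and the highest value was that of female mutant 3. Log2 fold changes were 0.14 (SE 0.13) in females, 0.04 (SE 0.10) without that library, and -0.16 (SE 0.13) in males.

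Tgfbr2, the type II kinase that binds the ligand first, lies on chromosome 9 from 116084293 to 116175360, minus strand. It was at 24.6, 22.1 and 19.2 CPM in female mutants, against 21.9, 21.1 and 20.7 CPM in female wild-type mice. Male mutants had 22.7, 25.9 and 20.01 CPM, against 21.8, 20.5 and 22 CPM in male wild-type mice. Mutants bracketed the wild-type values in both sexes: their coefficient of variation was 11.5% over 6 libraries, against 3.10% in wild-type mice. The log2 fold change over both sexes was 0.07 (SE 0.09).

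Tgfbr3 encodes betaglycan, the co-receptor that presents Tgfb2. It was at 14.5, 13.2 and 12.2 CPM in female mutants, against 16.0, 14.8 and 12.8 CPM in female wild-type mice, and the groups overlapped. Male mutants had 16.1, 18.03 and 14.9 CPM, against 15.6, 12.3 and 13.9 CPM in male wild-type mice, which also overlapped. The log2 fold change was -0.13 (SE 0.15) in females and 0.23 (SE 0.14) in males, and the difference of -0.36 (SE 0.20) had an edgeR adjusted p of 0.555. Leaving out 1 female library gave -0.048 (without wild type 2), -0.056 (without mutant 6), -0.20 (without wild type 5) and -0.21 (without mutant 1) in females. Tgfbr3 lies on chromosome 5 from 107106570 to 107289629, minus strand. The gene Gm43422 shares exon bases with it on the same strand and had 0 to 7 counts. Per kb, Tgfbr1 exceeded Tgfbr2 in every library, by 1.55 to 2.81 times in mutants, against 1.99 to 2.52 times in wild-type mice.

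Among the Smads, Smad7 in females and Smad4 in males had groups that did not overlap, and no difference passed the test. Such groups were common, at 22.5% of all tested genes in females and 13.5% in males. Smad2, phosphorylated by Tgfbr1, was at 31.0, 26.7 and 32.9 CPM in female mutants 1, 3 and 6, against 28.8, 29.1 and 29.6 CPM in female wild-type mice. Without the shallow library the 2 female mutants left lay above the wild-type mice, at a log2 fold change of 0.13 (SE 0.08). With that library left out, 30.1% of all tested genes had female groups that did not overlap. Male mutants had 33.6, 30.5 and 30.6 CPM, against 30.1, 31.6 and 29.2 CPM in male wild-type mice, with overlap.

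Smad3 is the other receptor-activated Smad. Female mutants had 60.9, 48.4 and 84.6 CPM, against 62.5, 75.2 and 73.3 CPM in female wild-type mice. Male mutants had 72.7, 70.9 and 92.1 CPM, against 57.0, 83.5 and 74.9 CPM in male wild-type mice. The groups overlapped in both sexes, and the coefficient of variation was 22.1% in mutants and 13.5% in wild-type mice (n = 6 each). Its log2 fold change over both sexes was 0.01 (SE 0.14), the largest standard error of the 10 members there. Smad3 lies on chromosome 9 from 63646767 to 63757994, minus strand.

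Smad4, the partner that both receptor-activated Smads need, was at 49.2, 60.4 and 50.8 CPM in female mutants, against 46.1, 49.2 and 57.3 CPM in female wild-type mice. Male mutants had 46.6, 46.0 and 44.2 CPM, against 50.1, 54.5 and 49.2 CPM in male wild-type mice. The females overlapped, and in males every mutant lay below every wild-type mouse. In males 13.5% of all tested genes had groups that did not overlap. The male log2 fold change was -0.17 (SE 0.11; edgeR adjusted p = 0.9999), and -0.17 (SE 0.08; edgeR adjusted p = 0.606) in the fit without female mutant 3.

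Smad7, the feedback inhibitor, was at 19.7, 10.4 and 17.9 CPM in female mutants 1, 3 and 6, against 21.5, 19.8 and 20.6 CPM in female wild-type mice. Every female mutant lay below every female wild-type mouse, and the lowest value came from female mutant 3, where it rests on 27 counts. In females 22.5% of all tested genes had groups that did not overlap. Male mutants had 18.9, 20.2 and 17.8 CPM, against 21.8, 18.4 and 18.6 CPM in male wild-type mice, which overlapped. The female log2 fold change was -0.29 (SE 0.17; edgeR adjusted p = 0.458), and -0.13 (SE 0.10; edgeR adjusted p = 0.678) without that library, so its size depends on it. Smad2, Smad4 and Smad7 lie within 2.67 Mb of each other on chromosome 18, and in males their log2 fold changes were 0.06, -0.17 and -0.05.

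**Figure D3:**
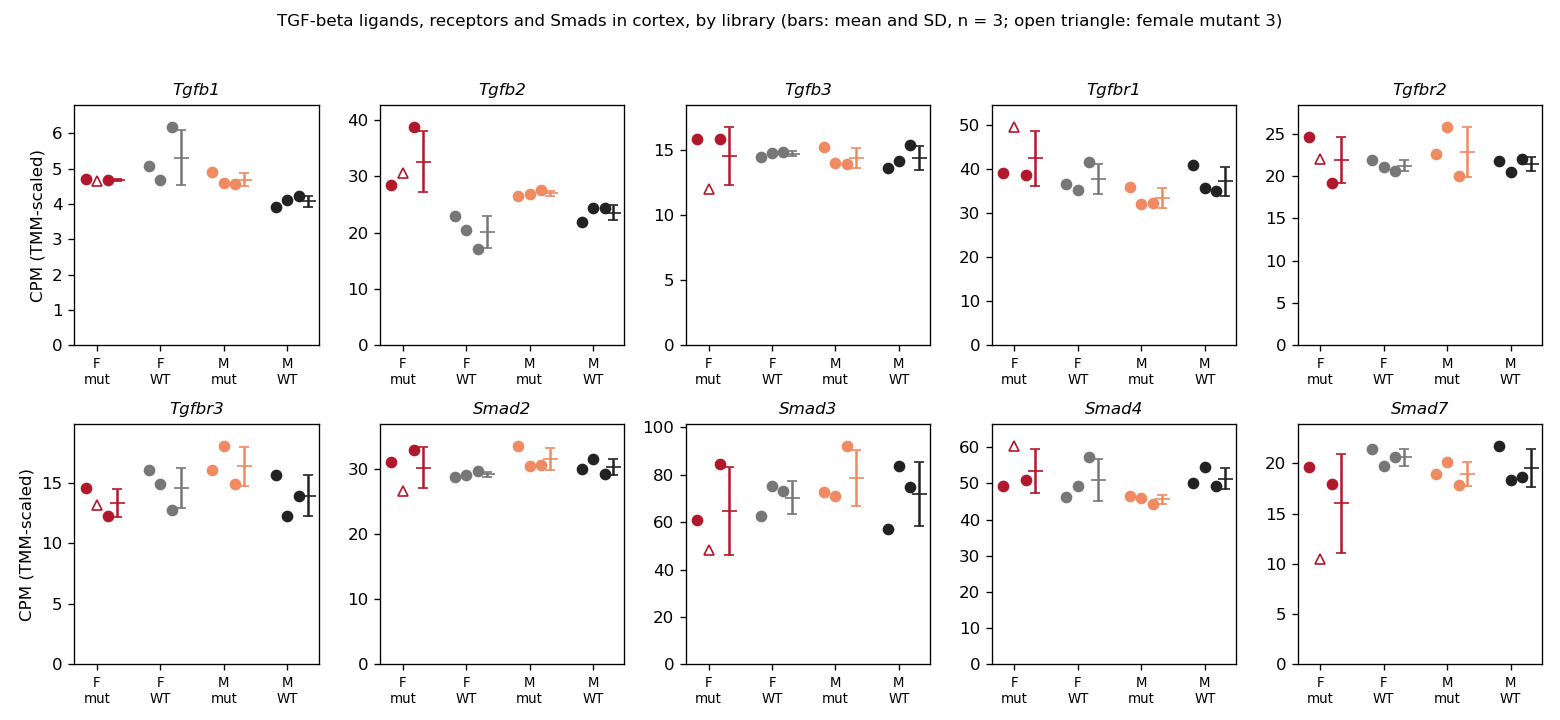
CPM (totals scaled by TMM) of the 10 members in each library of female mutants, female wild-type mice, male mutants and male wild-type mice; points are libraries, the open triangle is female mutant 3, and bars are the mean and SD of 3 libraries. Tgfb2 is above the wild-type points in both sexes, and the open triangle is the lowest female mutant point for Tgfb1, Tgfb3, Smad2, Smad3 and Smad7.

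Over the whole family, no member was called at an edgeR adjusted p under 0.05 in any comparison, with or without female mutant 3. That count has to be read against very few calls anywhere: 0.00555% of 18016 genes (1 gene) over both sexes, 0% in females, 0% in males and 0% for the difference between the sexes. The same fit gave 713, 2127, 501 and 1381 genes at an unadjusted p under 0.05 in that order, and DESeq2 called 29, 6, 4 and 4 genes. Without female mutant 3, the share called was 0.0108% over both sexes, 0% in females and 0.00542% in males, of 18461 genes. In females DESeq2 called 0.0333% of genes, and Tgfb2 was among them. Of the 9 members other than Tgfb2, the log2 fold changes over both sexes ran from -0.17 for Smad7 to 0.07 for Tgfbr2, with edgeR adjusted p of 0.950 to 0.994. Without female mutant 3 they ran from -0.10 for Smad4 to 0.095 for Smad3, with edgeR adjusted p of 0.747 to 0.983, and Smad7 had -0.083.

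By sign, 7 of 10 members were higher over both sexes with a median log2 fold change of 0.02, beside a median of -0.01 over all genes; scaled by library totals, where the median over all genes was -0.081, 9 of 10 were lower. In females 6 of 10 were higher (median 0.04, all genes -0.03), and 9 of 10 were lower on library totals, where the median over all genes was -0.21. In males 6 of 10 were higher (median 0.08, all genes 0.005), and 3 of 10 were lower on library totals. The count of lower members thus moved with the median of all genes, while Tgfb2 was higher in mutants under each scaling, in each sex.

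By overlap, 1 of 10 members (Tgfb2, higher) had groups that did not overlap over both sexes, where 0.438% of all tested genes had such groups, and without female mutant 3 it was again 1 of 10, where 1.08% did. In females it was 2 of 10 (Tgfb2 higher, Smad7 lower) against 22.5% of genes, and without female mutant 3 it was 4 of 10 (Tgfb2, Tgfb3 and Smad2 higher, Smad7 lower) against 30.1%. In males it was 3 of 10 (Tgfb1 and Tgfb2 higher, Smad4 lower) against 13.5%. Each of these counts includes Tgfb2, whose difference put the family forward, so they are a description. In females the members' share was near that of all genes. In males Tgfb1 and Smad4 were the only others, and no excess of members is read from the count.

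**Figure D4:**
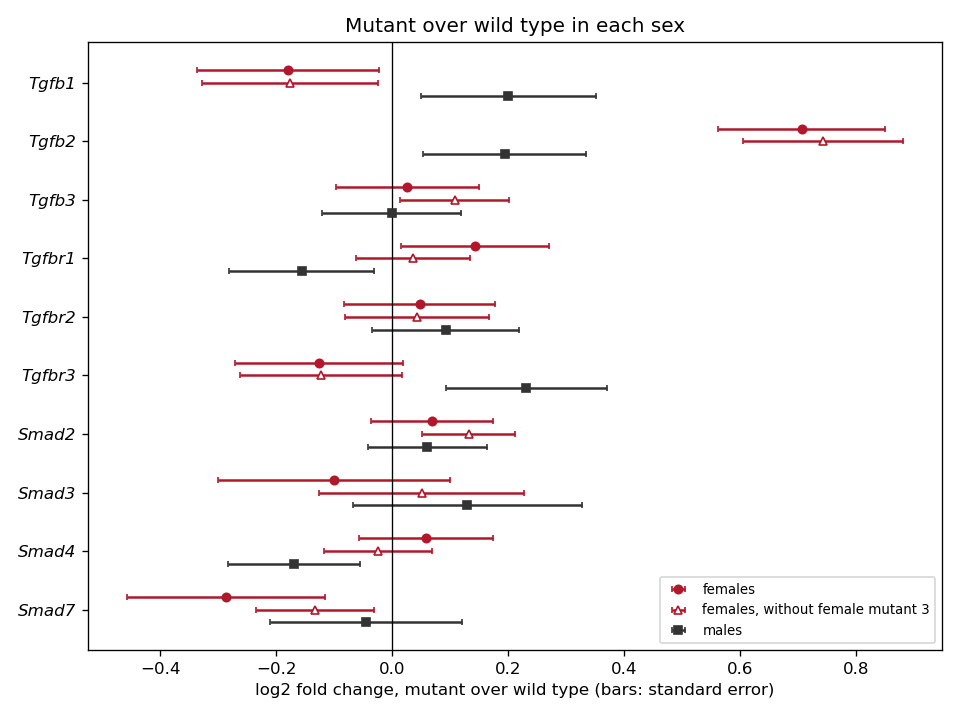
Log2 fold change, mutant over wild type, of each member in females (filled circles), in females without female mutant 3 (open triangles) and in males (squares), with standard errors from the edgeR fit. Tgfb2 in females, at 0.71 and 0.74, stands off from the other members, which lie between -0.29 and 0.23.

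Sex, which played no part in the choice of the family, was compared over both genotypes. No member was called between females and males, where edgeR called 0.0389% of genes (7 of 18016, at 319 genes with an unadjusted p under 0.05), and no member had groups that did not overlap, where 0.222% of genes did. Log2 fold changes, female over male, ran from -0.15 for Smad3 (SE 0.14) to 0.20 for Tgfb1 (SE 0.12). Tgfbr1 had 0.17 (SE 0.10) and Tgfb2 0.03 (SE 0.12), with edgeR adjusted p of 0.897 and 0.970.

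The rest of the pathway was read from 7 lists, of which 75 entries were tested. None was called in the genotype comparisons; over both sexes 43 were higher and 32 lower, in females 32 and 43, and in males 45 and 30. For each list the 2 genes of smallest p over both sexes are named, each with an edgeR adjusted p of 0.950. Of 15 other ligands, 13 were tested and 8 were higher. Gdf11, a ligand that signals through Smad2 and Smad3 and limits neurogenesis in mice, averaged 17.5 ± 1.75 CPM in mutants (15.1 to 19.4) and 23.2 ± 3.27 CPM in wild-type mice (19.7 to 28.2; SD, n = 6 each), at a log2 fold change of -0.41 (SE 0.11). Every Gdf11 value in mutants lay below every value in wild-type mice, where 0.438% of all tested genes had groups that did not overlap. Gdf11 was named for its small p in the same comparison, so this is a description. Mstn, its close relative myostatin, was near the floor at 0.259 ± 0.161 CPM in mutants, against 0.364 ± 0.145 CPM in wild-type mice.

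Of 10 other receptors, all tested, 7 were higher. Bmpr1b, a type I receptor for bone morphogenetic proteins, averaged 35.1 ± 4.59 CPM in mutants, against 29.9 ± 1.95 CPM in wild-type mice (log2 fold change 0.22, SE 0.08). Acvrl1, the type I receptor of endothelial cells, averaged 8.38 ± 1.53 CPM in mutants, against 11.9 ± 3.28 CPM in wild-type mice (-0.44, SE 0.18). Over both sexes 6 of 6 endothelial markers were lower, at a median log2 fold change of -0.04. Within a sex it was 4 of 6 in females, at -0.08, and 3 of 6 in males, at -0.007. The part of these markers in the Acvrl1 value was not tested. The 4 other Smads were all higher, Smad9 at a log2 fold change of 0.18 (SE 0.14) and Smad1 at 0.09 (SE 0.08); both carry bone morphogenetic protein signals. None of these differences passed the test.

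Latency and activation genes split 7 higher and 5 lower of 12 tested. Ltbp1, a binding protein that anchors latent TGF-beta in the matrix, averaged 7.97 ± 0.986 CPM in mutants, against 8.46 ± 0.468 CPM in wild-type mice, and Ltbp2 was low and variable, at 0 to 2.15 CPM in mutants, against 0.125 to 0.772 CPM in wild-type mice. Of 9 intracellular inhibitors, 4 were higher and 5 lower. Tgif1, a corepressor of Smad targets, averaged 1.73 ± 0.247 CPM in mutants, against 1.12 ± 0.274 CPM in wild-type mice (0.62, SE 0.19), with mutants at 1.43 to 2.003 CPM and wild-type mice at 0.863 to 1.61 CPM. Pmepa1, a target gene that restrains the receptor signal, averaged 36.0 ± 5.98 CPM in mutants, against 43.5 ± 8.30 CPM in wild-type mice (-0.26, SE 0.14).

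Target genes split 8 and 8 of 16 tested over both sexes. In females 11 of 16 were lower, at a median log2 fold change of -0.17, but without female mutant 3 it was 8 of 17, at a median of 0.03. In males 12 of 16 were higher, at a median of 0.07 beside 0.005 over all genes. Id2, an inhibitor of differentiation, averaged 93.9 ± 8.07 CPM in mutants, against 87.9 ± 9.005 CPM in wild-type mice, and Col3a1, a fibrillar collagen, 5.65 ± 3.36 CPM in mutants, against 4.46 ± 1.36 CPM in wild-type mice. Of 11 microglial genes that depend on TGF-beta in mice, 5 were higher and 6 lower. Cx3cr1, the fractalkine receptor, averaged 39.5 ± 6.61 CPM in mutants, against 44.8 ± 3.17 CPM in wild-type mice, and Mertk, a receptor for the uptake of dying cells, 36.9 ± 5.01 CPM in mutants, against 40.4 ± 3.82 CPM in wild-type mice. Log2 fold changes in females and males were -0.37 and 0.03 for Cx3cr1, and 0.11 and -0.39 for Mertk. No gene of this list was called for the interaction (lowest edgeR adjusted p = 0.555), so a difference between the sexes was not shown. In females 4 of the 11 were higher and 7 lower, and without female mutant 3 it was 6 and 5.

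Across libraries, the genes most like Tgfb2 were Erc1, Polr3gl, Arrb2, Pnmal2 and Nedd4, with a mean absolute difference of standardised log2 CPM of 0.252, 0.283, 0.295, 0.311 and 0.324 over 11 libraries, without female mutant 3, among 13270 genes of mean 1 CPM or more. With all 12 libraries their ranks were 24, 58, 584, 173 and 226, so none stayed among the 5 nearest. The nearest other member was Smad2, at 0.667 and rank 499, and the farthest was Smad7, at 1.42 and rank 12972. The libraries share tissue and preparation.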

How the data were processed

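As deposited, the values are whole read counts for each gene in each library. Per the labels' protocols, RNA from frozen cortex went into Kapa mRNA HyperPrep libraries, read as pairs of 150 bases on a NovaSeq. Per the submitters' processing notes, Trimmomatic 0.36, HISAT2 2.1.0, HTSeq 0.11, Cufflinks and the build GRCm38.p6 were used. Neither the strand setting nor the annotation release is given in the sources used here, so reads of overlapping antisense genes cannot be told apart. Of 54232 identifiers, 54165 matched GENCODE M21.

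Genes kept by filterByExpr over the 4 groups (18016) were tested with edgeR 4.0.16 (R 4.3.3), on TMM scaling, by the quasi-likelihood test. Sex and genotype were the terms over both sexes; contrasts within a sex and the interaction used a mean for each group. The Benjamini-Hochberg adjustment ran over every tested gene, with calls at 0.05. Libraries of the same group differed by 9.86 times the counting error or more (chi-square over its degrees of freedom), so none was counted as a copy of another.

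Members, lists and motifs were chosen with earlier results of these data known. Named are all members, Tbl1xr1, the 2 genes of smallest p in each list and the 5 nearest to Tgfb2. Alternatives were DESeq2 1.42.0, limma-voom 3.58.1 with and without library weights, RLE and library-total scaling, a looser filter (none) and a stricter one (1 CPM in 6 libraries), no sex term, each sex alone and leaving out each library; DESeq2 without female mutant 3 was added after the data were seen.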

Additional observations from a re-analysis of the deposited data

Results flagged for a closer look

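Among 38 sets of 6 libraries, 3 held a library far from the others of its genotype by Dixon's criterion, and chance alone flags about 1 set in 20. Tgfb2 in female mutant 6, at 38.84 CPM, lay above the other mutants, which had 26.5 to 30.6 CPM. Smad7 in female mutant 3, at 10.4458 CPM, lay below the other mutants, which had 17.8 to 20.2 CPM. The ratio of Smad7 to Smad4 per kb in female mutant 3 was 0.142106, against 0.290 to 0.359 in the other mutants. Female mutant 3 is the library of 3748515 counts and a mitochondrial share of 31.6%, and its part in these values was not tested.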

How the results depend on the processing

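No paired analysis was possible because no number in the labels is shared between groups. Of the 10 members, Tgfb2 was the only one called by any alternative: DESeq2 called it in females (adjusted p = 0.0244, and 0.00432 without female mutant 3). Over the 22 settings run in females, the main fit among them, its adjusted p by the test of each setting ran from 0.00432 to 0.752. The log2 fold change of Tgfb2, mutant over wild type, kept its sign in every setting: 0.51 to 0.81 in females, 0.15 to 0.23 in males and 0.34 to 0.49 over both sexes. This is a description, since that difference put the family forward. Every other member changed sign in some genotype comparison, and Tgfb2 ran from -0.078 to 0.10 for female over male. Within a single comparison, a kept sign was not particular to Tgfb2. In males Tgfb1 stayed at 0.17 to 0.24, Tgfbr3 at 0.15 to 0.32 and Smad4 at -0.20 to -0.12. In females Smad7 stayed at -0.46 to -0.13.

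Genes called over both sexes, in females, in males, for the interaction and for sex numbered 1, 0, 0, 0 and 7; DESeq2 called 29, 6, 4, 4 and 12, and without female mutant 3 it called 53, 15, 16, 4 and 13. Voom with library weights called 22, 4, 1 and 1 in the first 4. Without a filter, 2 were called in females and 1 for the interaction. Library totals called 0 over both sexes. Leaving out each library gave 0 to 2 over both sexes, 0 to 1 in males and 0 to 1 for the interaction. Members lower over both sexes numbered 2 to 5 when a library was left out.

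Library totals shifted the all-gene median of the log2 fold change by -0.07 over both sexes, -0.18 in females and -0.22 for the interaction, and made 9 members lower in mutants over both sexes and 9 in females. Log2 fold changes that turned under it over both sexes were Tgfb1 -0.043, Tgfb3 -0.060, Tgfbr2 -0.0066, Tgfbr3 -0.015, Smad2 -0.013 and Smad3 -0.060. In females they were Tgfb3 -0.15, Tgfbr1 -0.075, Tgfbr2 -0.15, Smad2 -0.12 and Smad4 -0.16, and in males Tgfb3 0.033. For the interaction they were Tgfb3 -0.18, Smad2 -0.22 and Smad4 -0.026, and for sex Tgfb2 -0.076, Tgfb3 -0.051 and Smad4 -0.016.

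Voom with library weights turned Smad3 to -0.032 over both sexes, Tgfbr2 to -0.019 and Smad3 to 0.094 in females, Smad7 to 0.011 in males and Smad3 to 0.084 for the interaction. For sex it turned Tgfb2 to -0.029, Tgfbr2 to 0.0072 and Smad7 to 0.082. DESeq2 without female mutant 3 turned Smad3 to 0.057 and Smad4 to -0.017 in females and Smad7 to 0.042 for sex. RLE scaling turned Tgfb3 to 0.00069 in males, the filter of 1 CPM turned Tgfbr1 to 0.0020 over both sexes, no filter turned Smad2 to -0.011 for the interaction, and no sex term turned Tgfb1 to -0.0039 over both sexes. The cause was not tested.

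Leaving out each library in turn, log2 fold changes over both sexes ran from -0.018 to 0.094 for Tgfb1, -0.015 to 0.048 for Tgfb3, -0.069 to 0.040 for Tgfbr1 and -0.077 to 0.095 for Smad3. In females they ran from -0.029 to 0.11 for Tgfb3, -0.065 to 0.15 for Tgfbr2, -5e-06 to 0.13 for Smad2, -0.35 to 0.051 for Smad3 and -0.024 to 0.16 for Smad4. In males they ran from -0.044 to 0.049 for Tgfb3, -0.0052 to 0.18 for Tgfbr2, -0.011 to 0.26 for Smad3 and -0.090 to 0.037 for Smad7. For the interaction they ran from -0.028 to 0.11 for Tgfb3, -0.16 to 0.057 for Tgfbr2 and -0.061 to 0.071 for Smad2. For sex they ran from -0.078 to 0.10 for Tgfb2, -0.081 to 0.0090 for Tgfbr2 and -0.094 to 0.041 for Smad7.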
